A study of Mus musculus with 4 samples.

Results

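The genes described here are 38 genes of amino acid transport and synthesis, 26 transporters and 12 enzymes, chosen by symbol from the 29676 gene names of the arrays, with every probe of each gene. They were read in astrocyte-enriched cultures (AECs) of ICR mice, which are primary mixed glia from the cerebral cortex of newborn pups. In the AECs of both groups, microglia had been depleted with PLX3397, which blocks the receptor of a growth factor (CSF1) that microglia need. In 2 cultures the cells were left untreated, and in 2 cultures they underwent oxygen-glucose deprivation (OGD), in medium without glucose and under hypoxia, for 15 h. According to the methods, wells were seeded from separate cultures of different pups, and the study names oligodendrocytes and possibly NG2 glia as cells that AECs still hold. RNA of each culture was labeled with Cy3 and hybridized to its own single-color array.

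Cells obtain amino acids by carriers of the solute carrier (Slc) families and by synthesis from glycolytic and mitochondrial intermediates. Astrocytes are known for making L-serine, for handling glutamine and glycine, and for taking up cystine, which limits glutathione synthesis. When amino acids run short or protein folding fails, kinases phosphorylate the initiation factor eIF2, the transcription factor ATF4 is translated, and ATF4 with its partners binds C/EBP-ATF response elements. *Asns*, *Chac1*, *Slc7a11* and *Mthfd2* are textbook targets of this pathway, which is called the amino acid or integrated stress response.

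Promoter sequence was examined because such elements lie close to the start of known target genes. A window from 250 bases before to 50 bases after an annotated start (RefSeq, GRCm38) was given for 31 of the 38 genes, and 7 genes, among them *Slc7a5*, *Slc7a3* and *Cth*, had none and are only named. The C/EBP-ATF core TGATGNAA, searched on both strands, was found in 6 of the 31 genes (19.4%), against 4.51% of all 27025 genes with a window. Stretches upstream of the start are shown for 5 of these genes, because they include genes that rose and genes that fell after OGD. Capitals mark the core as it reads on the gene's strand, so that TTGCATCA is TGATGCAA on the opposite strand, and positions count back from the start.
*Asns*, chr6:7693210-7693262, minus strand, positions -53 to -1: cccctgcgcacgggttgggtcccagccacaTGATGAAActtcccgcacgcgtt
*Chac1*, chr2:119351019-119351086, plus strand, positions -223 to -156: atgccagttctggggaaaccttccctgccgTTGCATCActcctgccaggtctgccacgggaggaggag
*Slc7a11*, chr3:50443623-50443709, minus strand, positions -96 to -10: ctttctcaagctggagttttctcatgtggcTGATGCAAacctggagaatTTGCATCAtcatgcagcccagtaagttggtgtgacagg
*Slc7a7*, chr14:54418048-54418115, minus strand, positions -171 to -104: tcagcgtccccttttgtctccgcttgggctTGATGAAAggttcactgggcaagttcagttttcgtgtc
*Pycr1*, chr11:120643814-120643881, minus strand, positions -133 to -66: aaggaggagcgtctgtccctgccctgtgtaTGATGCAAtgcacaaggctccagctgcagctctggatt

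*Slc7a7*, with several annotated starts, held the core at 2 sites, of which 1 is shown, and the other lies across the start from which the positions shown are counted (-1 to 7). The remaining gene, *Slc1a4*, held the core across its annotated start. The hypoxia response element core, ACGTG or GCGTG on either strand, was found in 25 of the 31 genes (80.6%), against 46.73% of all genes with a window. These shares were not matched for base composition, and a match is a stretch of letters and not a measured binding site. Of the genes with a C/EBP-ATF core, *Asns*, *Chac1* and *Slc1a4* were called higher with the 75th percentile. *Slc7a11* and *Slc7a7* were called lower, and *Pycr1* was not called. Among these genes, only *Chac1* (higher) and *Slc7a7* (lower) kept their call under every alternative setting. Whether the core goes with a direction was not tested.

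Values are given as relative signal, which is the processed signal of a probe divided by the 75th percentile of its own array. That percentile was 2135 and 2164 on the untreated arrays but 887 and 776 on the OGD arrays, with a log2 difference of -1.37. The 9 spiked-in control probes that could be read on every array differed by only -0.085 on average (range -0.75 to 0.28). A change is therefore relative to the bulk of probes, and scaling on the spiked-in control RNA moved the median log2 fold change of all genes tested from 0.16 to -1.13. The 4 arrays shared 1 slide and 1 scan, no spot was saturated (0), and 73.0% to 73.7% of spots were well above background on the untreated arrays against 64.5% to 66.2% after OGD. All 10 astrocyte markers checked were well above background on the 4 arrays.

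After OGD, the glutathione-degrading *Chac1*, the one-carbon gene *Mthfd2*, *Cth* of cysteine synthesis and the carriers *Slc7a3*, *Slc7a1*, *Slc36a4* and *Slc7a5* rose with the 75th percentile and with spike-in scaling. All 4 genes of asparagine and serine synthesis rose relative to the bulk of probes, though under spike-in scaling 0 of them rose and 3 fell. Of 7 exchanger genes 4 fell with the 75th percentile (57.1%, against 27.8% of all genes), among them the cystine carrier *Slc7a11*. With another background correction (normexp) only 1 of the 7, *Slc7a7*, was called lower (against 20.8% of all genes). Of the 38 genes, 37 could be tested with limma, and 21 of them were higher and 10 lower (adjusted p under 0.05), whereas under spike-in scaling 7 were higher and 23 lower, and with normexp background correction 27 were higher and 6 lower. Among all 21061 genes tested, 37.1% were called higher and 27.8% lower, under spike-in scaling 3.84% and 83.3%, and with normexp correction 60.5% and 20.8%. More than 2-fold changes were found upward for 13 of the 37 and downward for 6, against 12.7% and 15.0% of all genes. The 6 include *Slc7a10*, for which only a bound of 1.05-fold holds, and the count was 5 with probes well above background on all arrays and 1 with normexp correction. The median log2 fold change of the 37 genes was 0.66, compared with 0.16 for all genes. The relative signals of the groups did not overlap for 35 of the 37 genes, which was so for 84.8% of all genes. In such bulk RNA, fewer cells of a type and less RNA per cell cannot be told apart. With 2 arrays per group, the adjusted p reflects the spread of very few cultures.

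Enzymes and transporters are given side by side. Of the 12 enzymes, 9 rose, 0 fell and 3 were not called (against 37.1% higher and 27.8% lower of all genes). Their median log2 fold change was 1.20. Under spike-in scaling 3 enzymes rose and 6 fell (against 3.84% and 83.3% of all genes). With normexp correction 11 rose and 0 fell (against 60.5% and 20.8%). Quantile and median scaling called 1 enzyme lower (31.1% and 27.2% of all genes). The 75th percentile of probes above background called 2 lower, *Shmt1* and *Pycr1* (32.5% of all genes). Of the 25 transporters tested, 12 rose and 10 fell, with a median of 0.29, and under spike-in scaling 4 rose and 17 fell, beside the same shares of all genes. The difference between the sets was not tested.

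**Figure D1:**
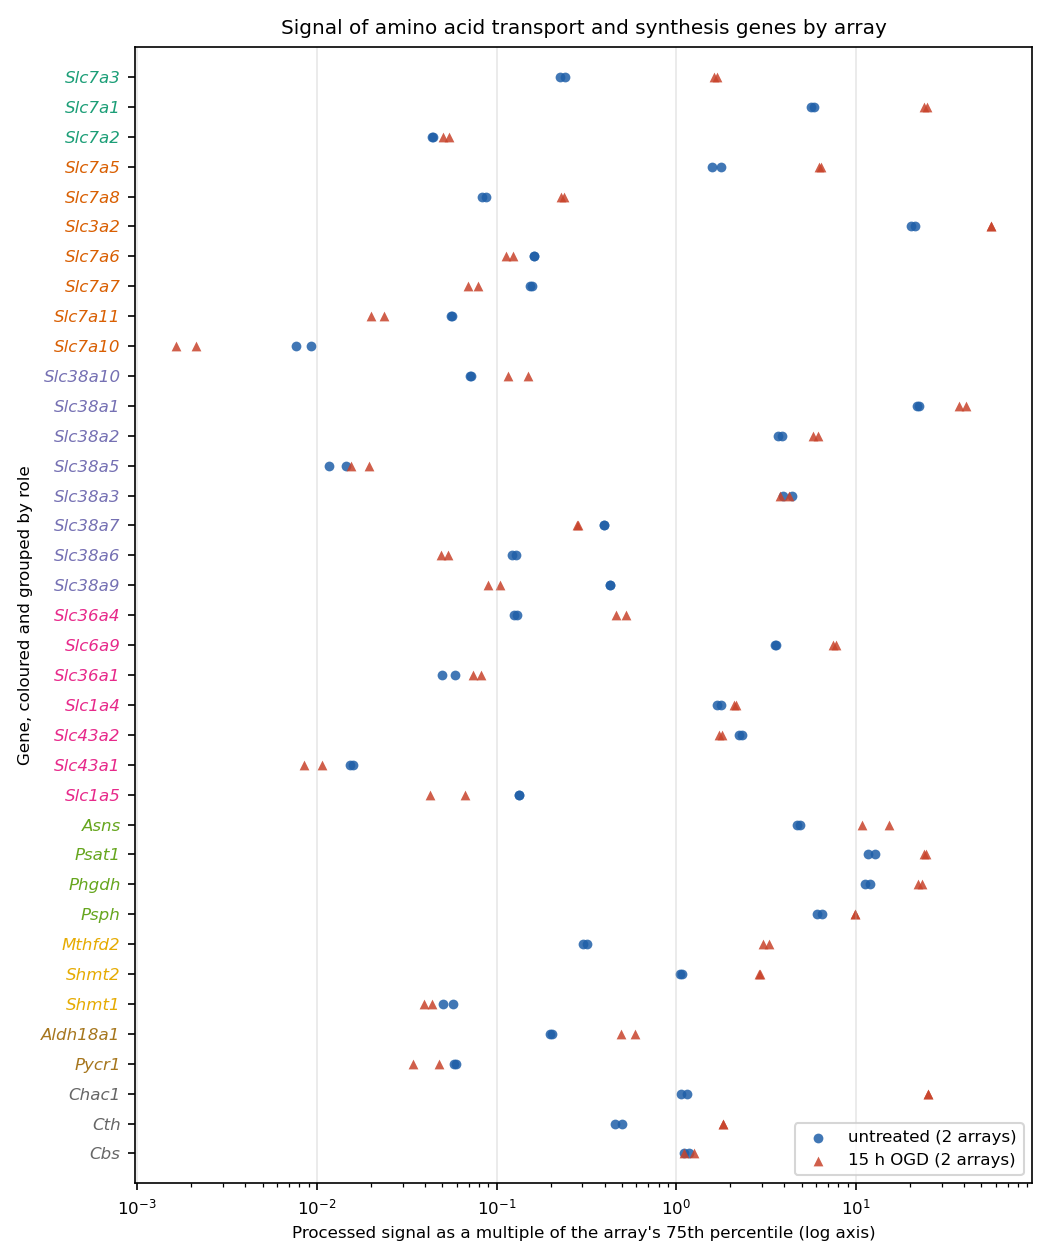
Relative signal (processed signal divided by the 75th percentile of the array, log axis) of the 37 tested genes on each of the 4 arrays, grouped and colored by role. Circles are the 2 untreated and triangles the 2 OGD arrays, and the groups overlap only for *Slc38a3* and *Cbs*.

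For 7 genes the call, though not the size of the increase, was kept under each scaling. *Chac1*, *Mthfd2*, *Slc7a3*, *Slc7a1*, *Slc36a4*, *Cth* and *Slc7a5* passed the test upward under all 17 alternative settings, spike-in scaling included. Under that scaling their log2 fold changes were smaller, 3.22 for *Chac1*, 2.05 for *Mthfd2*, 1.54 for *Slc7a3*, 0.80 for *Slc7a1*, 0.66 for *Slc36a4*, 0.65 for *Cth* and 0.62 for *Slc7a5*. These were also the 7 genes whose processed signal, before any scaling, was higher on both OGD arrays than on both untreated arrays. The spiked-in controls differed by only -0.085 on the log2 scale, so values under spike-in scaling lie close to the unscaled signal. The match is therefore not a separate check. By the same unscaled signal 25 genes were lower, and 5 overlapped. Of all genes tested, 4.78% were higher and 90.9% lower on this measure. In the other direction, *Slc38a9*, *Slc38a6* and *Slc7a7* were lower under all 17 settings.

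Cationic amino acid transporters carry arginine, lysine and ornithine. Of these, *Slc7a3* and *Slc7a1* rose under each scaling, while the call of *Slc7a2* depended on the setting. *Slc7a3* had a relative signal of 0.239 and 0.225 in untreated and 1.62 and 1.68 in OGD cultures, a log2 fold change of 2.83 ± 0.08 (SE, limma adjusted p = 0.000729). *Slc7a1*, the widely expressed arginine carrier, had 5.63 and 5.83 against 24.8 and 24.0, a log2 fold change of 2.09 ± 0.08 (limma adjusted p = 0.000758). In both genes the 2 arrays of a group lay close together and far from the other group. The relative signal of *Slc7a2*, a carrier of the same family, was 0.0443 and 0.0437 against 0.0502 and 0.0541. Its log2 fold change was 0.24 (95% interval 0.01 to 0.48, limma adjusted p = 0.0677), which was not called. It was called lower under spike-in scaling (log2 -1.04, limma adjusted p = 0.000554), and higher with normexp correction (log2 0.76, limma adjusted p = 0.000241) and without OGD replicate 1 (log2 0.30, limma adjusted p = 0.0497).

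Heteromeric exchangers consist of the glycoprotein heavy chain Slc3a2 and a light chain of the Slc7 family that moves the amino acids. With the 75th percentile, the heavy chain *Slc3a2* and the light chains *Slc7a5* and *Slc7a8* rose (3 of 7, against 37.1% of all genes), and the other 4 light chains fell (against 27.8%). With normexp correction 4 were higher, *Slc7a10* among them, *Slc7a7* alone was lower, and *Slc7a6* and *Slc7a11* were not called, against 60.5% and 20.8% of all genes. Under spike-in scaling, *Slc7a5* rose and the same 4 fell, while *Slc3a2* and *Slc7a8* had log2 fold changes of 0.15 and 0.16 that were not called, against 3.84% higher and 83.3% lower among all genes.

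*Slc3a2* had a relative signal of 20.3 and 21.5 in untreated and 56.2 and 56.7 in OGD cultures, which is a 2.70-fold increase (log2 1.43 ± 0.08, SE). *Slc7a5*, which carries leucine and other large neutral amino acids, had 1.58 and 1.78 against 6.24 and 6.36 (log2 1.91 ± 0.10). *Slc7a8*, a relative of *Slc7a5* with a broader range of neutral substrates, had 0.0877 and 0.0829 against 0.228 and 0.238 (log2 1.45 ± 0.08). These 3 genes had limma adjusted p values of 0.00107, 0.000965 and 0.00111. Their groups did not overlap in relative signal, which was so for 84.8% of all genes. In the unscaled processed signal the groups of *Slc3a2* and *Slc7a8* overlapped.

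*Slc7a11*, the light chain that takes up cystine in exchange for glutamate, had a relative signal of 0.0557 and 0.0562 in untreated and 0.0200 and 0.0237 in OGD cultures. It fell by 1.36 on the log2 scale (SE 0.12, limma adjusted p = 0.00209). Its promoter window, shown above, holds the C/EBP-ATF core at 2 positions. With normexp background correction of the mean signal in place of the processed signal, the same log2 fold change was -0.03 (limma adjusted p = 0.791), so the decrease of this dim probe was not called there. Before scaling its processed signal was 119 and 122 against 17.7 and 18.4.

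*Slc7a7* and *Slc7a6* exchange cationic for neutral amino acids. *Slc7a7* had 0.157 and 0.155 against 0.0695 and 0.0786 in relative signal and fell by 1.08 on the log2 scale (SE 0.10, limma adjusted p = 0.00239). *Slc7a6* had 0.162 on both untreated arrays against 0.113 and 0.123 and fell by 0.46 (SE 0.08, limma adjusted p = 0.0129), and this call was lost under normexp correction (log2 -0.05). It was also lost without untreated replicate 1 (limma adjusted p = 0.0986) and without untreated replicate 2 (limma adjusted p = 0.105).

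*Slc7a10*, a carrier of small neutral amino acids including D-serine, was not well above background on either OGD array. In the untreated cultures the processed signal reached 16.3 and 20.02, and after OGD it was 1.46 and 1.66, with a measured log2 fold change of -2.16 (limma adjusted p = 0.0021). Against the lowest signals that counted as well above background on the OGD arrays, it was at least 1.05-fold lower after OGD. That bound does not place it beyond the 2-fold limit, and with normexp correction the sign of this dim probe turned (log2 0.82).

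The Slc38 family comprises sodium-coupled carriers of glutamine, alanine and other neutral amino acids, and members that sit on lysosomes. Of the 8 tested, 3 rose, 3 fell and 2 were not called, whereas under spike-in scaling 0 rose and 7 fell. These shares, 37.5% higher and 37.5% lower, and 87.5% lower under spike-in scaling, stand beside 37.1%, 27.8% and 83.3% of all genes. *Slc38a4* was not well above background on any array, with a processed signal of 1.83 to 5.597 on the 4 arrays, and was not tested.

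*Slc38a1*, a plasma membrane glutamine carrier, had a relative signal of 22.4 and 21.8 in untreated and 37.3 and 41.2 in OGD cultures, a log2 fold change of 0.83 ± 0.09 (SE, limma adjusted p = 0.00357). With quantile normalization it was 0.06 and not called, and with spike-in scaling -0.46. *Slc38a2*, a carrier induced when amino acids are withdrawn, had 3.87 and 3.71 against 5.80 and 6.19 (log2 0.66 ± 0.08, limma adjusted p = 0.00503). Without untreated replicate 2 that call was lost (limma adjusted p = 0.0597). *Slc38a10* had 0.0711 and 0.0723 against 0.116 and 0.151 (log2 0.88 ± 0.15, limma adjusted p = 0.0113), and without untreated replicate 1 or 2 its limma adjusted p was 0.0711 or 0.0723. Under spike-in scaling these 3 genes had negative log2 fold changes, -0.46, -0.63 and -0.41, of which that of *Slc38a10* was not called.

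*Slc38a9*, a lysosomal arginine sensor upstream of the kinase complex mTORC1, was the gene of this family that fell most under the 75th percentile and spike-in scalings. Its relative signal was 0.429 and 0.430 in untreated and 0.0895 and 0.105 in OGD cultures, so it fell by 2.15 on the log2 scale (SE 0.11, limma adjusted p = 0.000982). *Slc38a6* had 0.128 and 0.122 against 0.0539 and 0.0489 and fell by 1.29 (SE 0.09, limma adjusted p = 0.00159). *Slc38a7*, which exports glutamine from lysosomes, had 0.397 and 0.399 against 0.280 and 0.285 and fell by 0.50 (SE 0.07, limma adjusted p = 0.0076). The call of *Slc38a7* was lost without untreated replicate 1 (limma adjusted p = 0.0754) and without untreated replicate 2 (limma adjusted p = 0.0821).

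*Slc38a3*, a glutamine carrier of astrocytes, had a relative signal of 3.91 and 4.39 in untreated and 3.77 and 4.23 in OGD cultures. The groups overlapped, and the log2 fold change was -0.05 (95% interval -0.37 to 0.26, limma adjusted p = 0.693). *Slc38a5*, a related carrier, had 0.0117 and 0.0145 against 0.0155 and 0.0194, with a log2 fold change of 0.42 (95% interval -0.08 to 0.92, limma adjusted p = 0.11). Under spike-in scaling the values of these genes were -1.34 and -0.87, and both were called lower. *Slc38a5* was called higher with normexp correction (log2 1.01, limma adjusted p = 7.95e-05) and with the replicate number as a block (limma adjusted p = 0.0364).

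Among the other neutral amino acid and glycine transporters, 4 of 7 rose and 3 fell (57.1% and 42.9%, against 37.1% and 27.8% of all genes). Under spike-in scaling 1 rose and 5 fell (14.3% and 71.4%, against 3.84% and 83.3% of all genes). *Slc36a4*, a high-affinity proline and tryptophan carrier, had a relative signal of 0.125 and 0.130 in untreated and 0.523 and 0.463 in OGD cultures (log2 1.95 ± 0.10, SE, limma adjusted p = 0.000973). *Slc6a9*, the glycine transporter of glia, had 3.55 and 3.58 against 7.76 and 7.44 (log2 1.09 ± 0.08, limma adjusted p = 0.00154), with -0.20 under spike-in scaling. *Slc36a1*, a proton-coupled lysosomal carrier, had 0.0586 and 0.0494 against 0.0744 and 0.0816 (log2 0.53 ± 0.12, limma adjusted p = 0.0246), with -0.75 under spike-in scaling. Its call was lost without untreated replicate 1 (limma adjusted p = 0.0566), untreated replicate 2 (0.132) or OGD replicate 2 (0.0721).

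*Slc1a4* and *Slc1a5* exchange alanine, serine and cysteine, and *Slc1a5* also glutamine. *Slc1a4* had a relative signal of 1.79 and 1.68 in untreated and 2.11 and 2.15 in OGD cultures (log2 0.29 ± 0.08, limma adjusted p = 0.0374), but -0.99 under spike-in scaling. This call was lost when any of the 4 arrays was left out, and it was kept in only 7 of the 17 alternative settings. *Slc1a5* had 0.133 and 0.134 against 0.0665 and 0.0425 and fell by 1.33 on the log2 scale (SE 0.24, limma adjusted p = 0.0129), the OGD arrays being the more unequal pair. Without untreated replicate 1 or 2 its limma adjusted p was 0.0692 or 0.0747.

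*Slc43a1* and *Slc43a2* are facilitated carriers of large neutral amino acids. *Slc43a2* had 2.23 and 2.33 against 1.79 and 1.73 in relative signal and fell by 0.37 on the log2 scale (SE 0.08, limma adjusted p = 0.0188). *Slc43a1* had 0.0153 and 0.0160 against 0.0108 and 0.00848 and fell by 0.71 (SE 0.15, limma adjusted p = 0.0173), but its probe was well above background on only 1 of the OGD arrays, and normexp correction turned the sign (log2 0.78). Both calls were lost without untreated replicate 1 (limma adjusted p = 0.11 for *Slc43a2* and 0.0845 for *Slc43a1*) and without untreated replicate 2 (0.153 and 0.105).

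**Figure D2:**
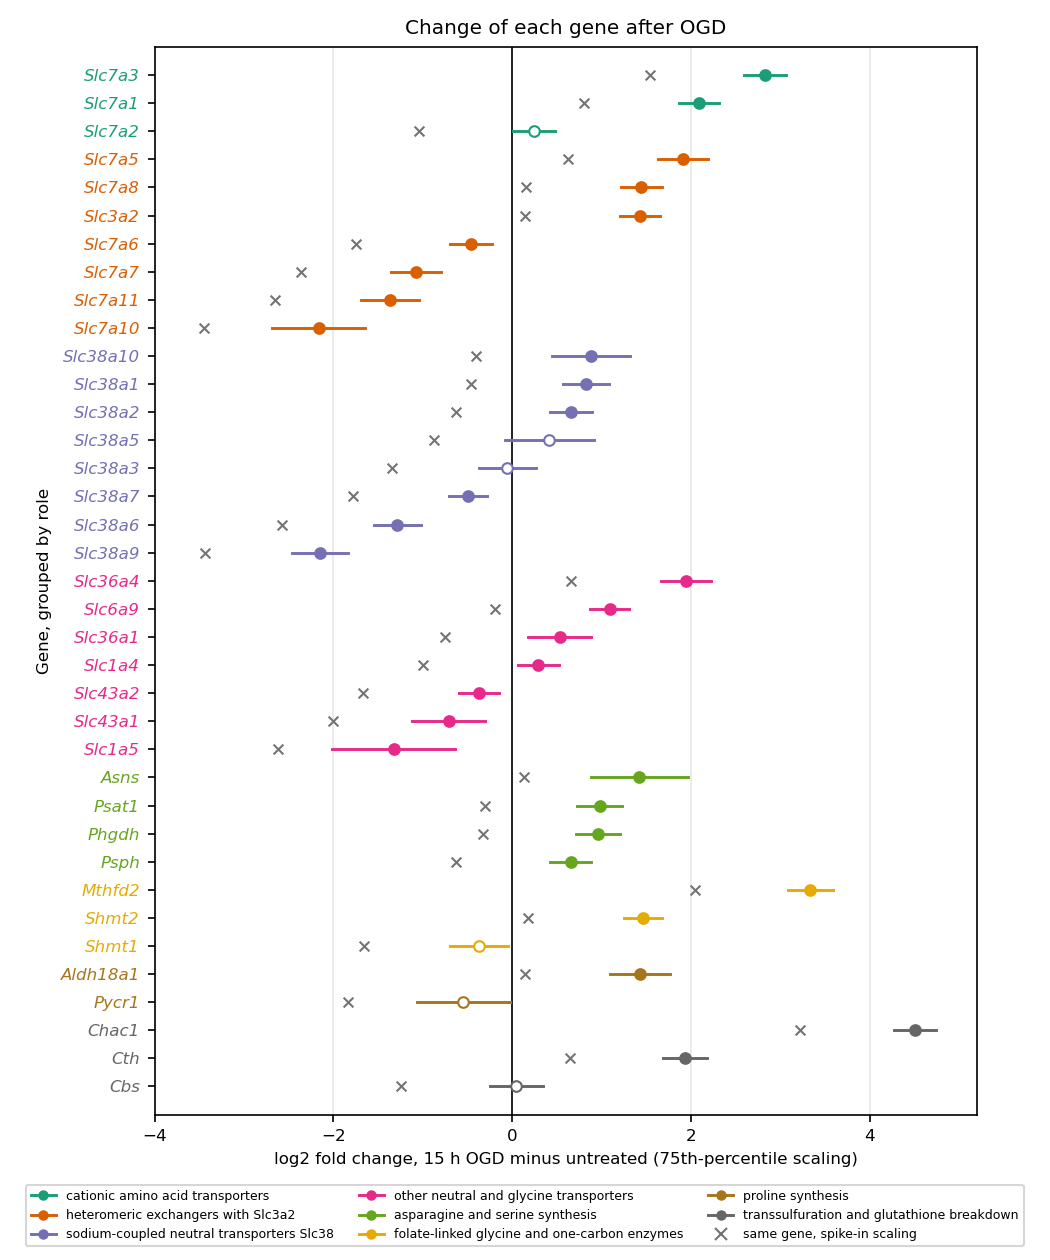
Log2 fold change (15 h OGD minus untreated, 75th-percentile scaling) of the 37 tested genes with 95% intervals from limma, grouped and colored by role. Filled points passed the adjusted p limit and open points did not, and crosses give the same gene under spike-in scaling, where 7 genes were called higher and 23 lower.

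All 4 genes of asparagine and serine synthesis rose under the 75th-percentile scaling (against 37.1% of all genes), but under spike-in scaling 0 rose and 3 fell (against 3.84% and 83.3%). *Asns*, which makes asparagine from aspartate and glutamine, had a relative signal of 4.89 and 4.68 in untreated and 15.2 and 10.8 in OGD cultures, with the widest spread of the 4 genes between the OGD arrays. Its log2 fold change was 1.42 ± 0.19 (SE, limma adjusted p = 0.00585), and 0.14 and not called under spike-in scaling. By the t-test of the methods, the adjusted p of *Asns* was 0.0589, so the call was lost.

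*Phgdh*, *Psat1* and *Psph* are the consecutive enzymes that make serine from a glycolytic intermediate. *Phgdh*, the entry enzyme, had 11.3 and 12.1 against 22.1 and 23.4 in relative signal (log2 0.96 ± 0.09, limma adjusted p = 0.00231). *Psat1* had 12.8 and 11.7 against 23.9 and 24.5 (log2 0.98 ± 0.09, limma adjusted p = 0.00233). *Psph* had 6.50 and 6.08 against 9.92 and 9.90 (log2 0.66 ± 0.08, limma adjusted p = 0.00473), and its call was lost without untreated replicate 2 (0.0581). The 3 enzymes passed the test upward with the 75th percentile, and they fell by 0.32, 0.31 and 0.63 on the log2 scale with spike-in scaling.

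Serine is turned into glycine and one-carbon units on folate by a mitochondrial and a cytosolic route. The mitochondrial genes rose, but only *Mthfd2* also did so under spike-in scaling. *Mthfd2*, whose enzyme oxidizes the folate-bound one-carbon unit in mitochondria, had a relative signal of 0.303 and 0.319 in untreated and 3.28 and 3.02 in OGD cultures. This is a 10.1-fold increase (log2 3.34 ± 0.09, SE, limma adjusted p = 0.000729). *Shmt2*, the mitochondrial serine hydroxymethyltransferase, had 1.05 and 1.08 against 2.91 and 2.95 (log2 1.46 ± 0.08, limma adjusted p = 0.000982), and 0.18 and not called with spike-in scaling. *Shmt1*, its cytosolic counterpart, had 0.0571 and 0.0502 against 0.0393 and 0.0438, with a log2 fold change of -0.37 (95% interval -0.69 to -0.05, limma adjusted p = 0.0517). It was called lower with quantile, median and spike-in scaling and with the 75th percentile of probes above background (limma adjusted p = 0.0273, 0.0413, 0.000167 and 0.0230), also with probes above background on all arrays (0.0369) and with outlier spots kept (0.0492), but higher with normexp correction (log2 0.48, limma adjusted p = 0.00403).

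Proline is made from glutamate by *Aldh18a1* and then *Pycr1*. *Aldh18a1* had a relative signal of 0.197 and 0.203 in untreated and 0.494 and 0.590 in OGD cultures (log2 1.43 ± 0.12, limma adjusted p = 0.00201), with 0.14 and no call under spike-in scaling. *Pycr1* had 0.0597 and 0.0583 against 0.0476 and 0.0344, with a log2 fold change of -0.54 (95% interval -1.07 to -0.02, limma adjusted p = 0.0647). The groups of *Pycr1* did not overlap, but its call depended on the setting. It was called lower under spike-in scaling (log2 -1.83, limma adjusted p = 0.000659), with the 75th percentile of probes above background (0.0311), with probes above background on all arrays (0.0471), with a robust limma prior and trend (0.0485), and without OGD replicate 1 (0.00772) or 2 (0.0482). With normexp correction it was called higher (log2 0.33, limma adjusted p = 0.0116).

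*Cbs* and *Cth* convert homocysteine to cysteine, and *Chac1* degrades glutathione. *Chac1* had the largest log2 fold change of the 37 genes under each of the scalings tried. Its relative signal was 1.15 and 1.07 in untreated and 25.2 and 25.3 in OGD cultures, a 22.8-fold increase (log2 4.51 ± 0.08, SE, limma adjusted p = 0.000729). Only 0.242% of all genes tested had a higher log2 fold change. Its processed signal before scaling was 2455 and 2307 against 22372 and 19670, and spike-in scaling gave a log2 fold change of 3.22.

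*Cth* had a relative signal of 0.496 and 0.455 in untreated and 1.81 and 1.83 in OGD cultures (log2 1.94 ± 0.09, SE, limma adjusted p = 0.000841), and 0.65 with spike-in scaling. For *Cbs*, which acts before *Cth*, the relative signals were 1.105 and 1.176 against 1.104 and 1.261. These groups overlapped, and the log2 fold change was 0.05 (95% interval -0.25 to 0.35, limma adjusted p = 0.705), or -1.24 with spike-in scaling.

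**Figure D3:**
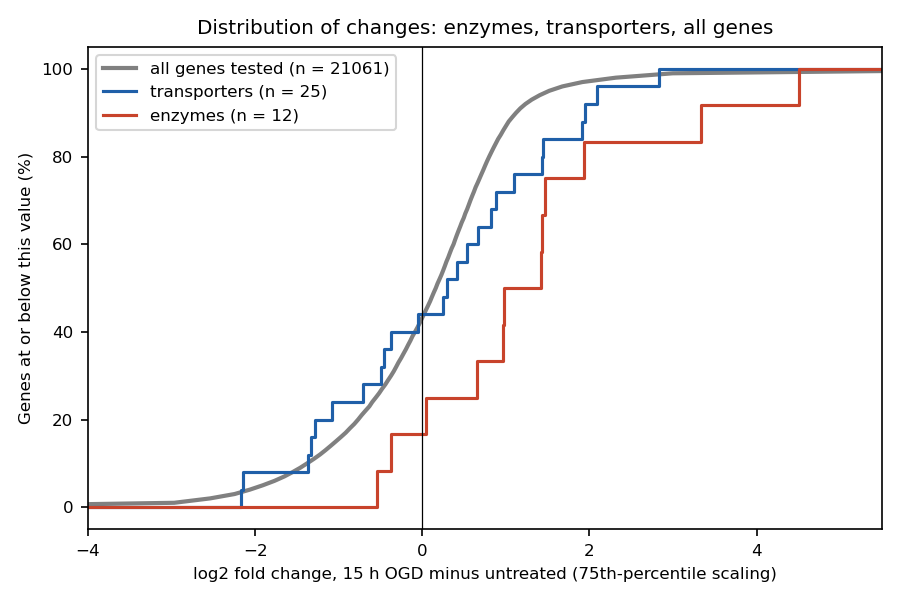
Cumulative share of genes (%) at or below each log2 fold change (15 h OGD minus untreated, 75th-percentile scaling) for the 12 enzymes, the 25 transporters and all 21061 genes tested. The enzymes have a median of 1.20 and the transporters of 0.29, against 0.16 for all genes, and spike-in scaling shifts all 3 medians downward by the same amount.

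Several genes were read by more than 1 probe. Of 13 genes with more than 1 tested probe, 11 had all probes called in the same direction. *Slc7a5* gave 1.91 and 2.35 on the log2 scale, *Cth* 1.94 and 1.86, *Psat1* 0.98 and 1.60, *Slc36a4* 1.95 and 2.76, and *Slc38a1* from 0.43 to 1.06. For *Slc38a9* the 3 probes gave -1.95, -2.15 and -3.07. The 2 exceptions were *Shmt1* and *Pycr1*. The second probe of *Shmt1* was called higher (log2 0.59 ± 0.09, limma adjusted p = 0.00841) while its brightest probe was at -0.37. The second probe of *Pycr1* was not well above background on the OGD arrays and was at 0.04 (limma adjusted p = 0.939). The direction of these 2 genes is therefore not settled by their probes.

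**Figure D4:**
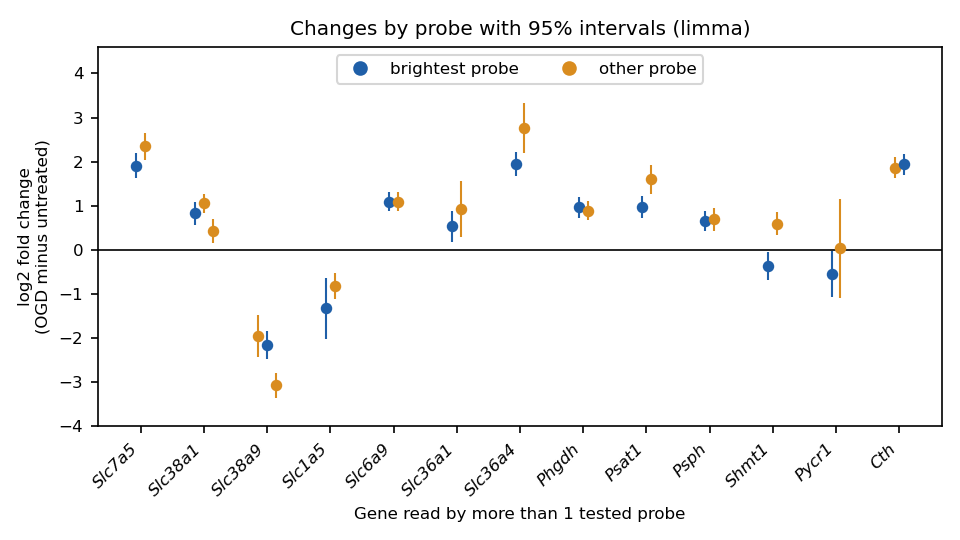
Log2 fold change (OGD minus untreated, 75th-percentile scaling) with 95% limma intervals for each tested probe of the 13 genes with more than 1 such probe. Blue points are the brightest probe of a gene and orange points the others, and the probes lie on opposite sides of 0 only for *Shmt1* and *Pycr1*.

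Other genes of the same pathways were counted from lists for comparison. Of 24 further amino acid transporters that could be tested (of 34 listed), 8 rose, 6 fell and 10 were not called, against 1 and 20 under spike-in scaling. Of 45 further enzymes (of 50 listed), 16 rose and 11 fell, against 1 and 39 under spike-in scaling. These shares, 33.3% higher and 25% lower for the transporters and 35.6% and 24.4% for the enzymes, are near those of all genes, 37.1% and 27.8%, as are the 83.3% and 86.7% lower under spike-in scaling, beside 83.3%. Their median log2 fold changes were 0.17 and 0.09, beside 0.16 for all genes and 0.66 for the 37 genes described here. Under normexp correction 15 of these transporters rose and 5 fell (62.5% and 20.8%), and 20 of the enzymes rose and 11 fell (44.4% and 24.4%). The shares of all genes were then 60.5% and 20.8%. With the 75th percentile, *Slc16a10*, an aromatic amino acid carrier, had a log2 fold change of 3.23 ± 0.13 (SE), and *Gls2*, a glutaminase, of 1.70 ± 0.13, with 1.95 and 0.41 under spike-in scaling. Lower were the mitochondrial carriers *Slc25a22* (-1.94 ± 0.23), for glutamate, and *Slc25a13* (-1.39 ± 0.08), for aspartate and glutamate, at -3.23 and -2.68 under spike-in scaling. So were *Bcat2*, a branched-chain aminotransferase (-1.57 ± 0.11), and *Mat2a*, which makes S-adenosylmethionine (-1.48 ± 0.27), at -2.86 and -2.77 under spike-in scaling.

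Regulators of the amino acid response, ATF4 and genes that act before and after it, were counted in the same way. Of 24 listed and tested, 16 rose and 3 fell (against 37.1% and 27.8% of all genes), with a median log2 fold change of 0.89, and under spike-in scaling 11 rose and 12 fell (against 3.84% and 83.3%). With the 75th percentile, *Trib3*, *Atf3* and *Myc* had log2 fold changes of 4.36 ± 0.08, 3.75 ± 0.09 and 3.52 ± 0.09 (limma adjusted p = 0.000729 for each). *Atf4* was at 2.00 ± 0.08 (limma adjusted p = 0.000765). Under spike-in scaling these 4 genes were at 3.07, 2.46, 2.23 and 0.72. The 3 genes that fell were the eIF2 kinase gene *Eif2ak2* (-2.43 ± 0.10), *Rptor*, a subunit of mTORC1 (-1.33 ± 0.08), and *Gcn1l1*, an activator of the kinase encoded by *Eif2ak4* (-0.55 ± 0.09). *Mtor*, also of mTORC1, rose (2.71 ± 0.08, and 1.42 under spike-in scaling). The other eIF2 kinase genes, *Eif2ak1*, *Eif2ak3* and *Eif2ak4*, were at 0.18, -0.33 and -0.50 and were not called, and under spike-in scaling all 4 kinase genes were lower (log2 -1.11 to -3.71). Genes of this list after *Myc* were named after their values were seen.

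Markers of cell types were read beside these genes as sums of relative signal over each list. The sum of the 10 astrocyte markers was 158 and 138 in untreated and 212 and 215 in OGD cultures. Of these 10 markers, 5 rose and 1, *Sox9*, fell by 1.52 on the log2 scale, but under spike-in scaling 0 rose and 7 fell. For these lists, too, the shares of all genes were 37.1% higher and 27.8% lower, and 3.84% and 83.3% under spike-in scaling. The sum of 8 microglial markers was 2.35 and 2.06 against 6.75 and 6.53, and 6 of the 8 were well above background on all arrays. Without *Cd68* it was 1.80 and 1.502 against 1.90 and 1.66, so that this 1 marker made nearly the whole increase of the sum. Of these 8, *Cd68* (log2 3.14 ± 0.08), *Csf1r* (1.14 ± 0.10) and *Aif1* (1.03 ± 0.08) rose, and *Tmem119* (-0.88 ± 0.13) and *Trem2* (-0.93 ± 0.21) fell, whereas under spike-in scaling 1 rose and 5 fell. With normexp correction 6 of the 8 were called higher and 0 lower (against 60.5% and 20.8% of all genes). Oligodendrocyte markers summed to 29.1 and 29.3 against 26.2 and 25.4, and NG2 glia markers to 1.66 and 1.61 against 1.33 and 1.29. Neuronal markers summed to 31.0 and 29.0 against 31.0 and 34.1, the 5 markers of meningeal fibroblasts read on all arrays to 13.0 and 11.1 against 10.9 and 8.36, and endothelial markers to 1.67 and 1.75 against 1.41 and 1.29, with 2 of the 5 endothelial markers on no array above background. The sum for meningeal fibroblasts leaves out *Col1a1*, which was an outlier spot on OGD replicate 1 and was not called (log2 -0.57). No marker list was at 0. The part of a changed cell mixture in the values above was not tested.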

How the data were processed

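The arrays were read by the authors with the Agilent Feature Extraction software (version 11.5.1.1 per the file headers and the submitters' processing notes). The deposited values are an intensity for each spot, the processed signal, which the software had corrected for background within each array and which was not normalized between arrays. The series table holds the same intensity for every spot. As in the methods, arrays were scaled by the 75th percentile. The rest was chosen here: log2 of the processed signal minus each array's 75th percentile over non-control probes was used. Outlier spots (119 to 132 an array) were left out and spots of 1 probe were averaged. A probe was kept if either group had it well above background on each of its arrays (28254 probes), and the groups were compared in R 4.3.3 with limma 3.58.1 (lmFit, eBayes), with Benjamini-Hochberg adjustment over all of them and a limit of 0.05. A gene was read by its brightest kept probe, by the mean of the 4 arrays. A fold for a gene that was dim in a group is a lower bound, the bright group's mean against the lowest signals well above background on the dim arrays. Every one of the 38 genes is named, and of each other list at most 3 genes with the largest change among those well above background on all arrays. Exceptions are *Atf4*, *Rptor*, *Mtor*, *Gcn1l1*, the eIF2 kinase genes, *Tmem119*, *Trem2* and *Col1a1*, which were named after their values were seen.

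The members and the lists were chosen with earlier results of these data known. Alternatives were other scalings (quantile, median, the 75th percentile over probes above background, spiked-in controls), normexp background correction with an offset of 50, the methods' t-test, a replicate block, a robust limma prior with trend, each array left out, the series table as input, inclusion of outlier spots, dim probes filtered more strictly or not at all, and the mean over a gene's probes. Marker sums without *Cd68* and without *Col1a1* were added after the data had been seen. The limma fit was tested on simulated arrays in which 200 probes were changed by known folds. The scaling, background correction, probe filter and motif search were not tested in this way. An array has no depth in reads, so precision rests on 2 arrays per group and on signal over background. Promoter windows come from RefSeq on GRCm38, and gene names are those of the array design. Figures were made with Python 3.11.15 and matplotlib 3.10.9.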

Additional observations from a re-analysis of the deposited data

How the results depend on the processing

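Of the 627 comparisons of a gene's call under an alternative with its call in the report, over 17 alternatives, 547 kept the direction and the side of the threshold, 42 kept only the direction and lost the call, 17 gained a call and 21 turned in sign. Spike-in scaling changed most: 7 genes were then higher and 23 lower, 3 and 15 of them by more than 2-fold. It turned the log2 fold change of *Slc7a2* to -1.04, *Slc38a1* to -0.46, *Slc38a2* to -0.63, *Slc38a5* to -0.87, *Slc38a10* to -0.41, *Slc1a4* to -0.99, *Slc6a9* to -0.20, *Slc36a1* to -0.75, *Phgdh* to -0.32, *Psat1* to -0.31, *Psph* to -0.63 and *Cbs* to -1.24. By its construction this scaling moves every probe with a value on all 4 arrays by the same amount. With normexp correction 27 genes were higher and 6 lower, 1 of the latter by more than 2-fold (all genes tested, 60.5% and 20.8%), and the sign turned for *Slc7a10* (0.82), *Slc43a1* (0.78), *Shmt1* (0.48) and *Pycr1* (0.33), and the cause was not tested. With 1 array left out, *Slc38a3* ranged from -0.138 to 0.0290 (above 0 without untreated replicate 2 or OGD replicate 1) and *Cbs* from -0.0464 to 0.145 (below 0 without OGD replicate 2), and *Cbs* was at -0.10 with the 75th percentile of probes above background, and *Shmt1* at 0.11 as the mean over its probes. Leaving out 1 array, whose group's remaining array is assumed to vary like the other group, 16 to 21 genes were higher and 5 to 11 lower, 13 to 15 and 5 to 6 by more than 2-fold, and the 5 were found without either untreated array. Samples with the same replicate number did not deviate together (correlation -0.057), and with the replicate number as a block 20 genes were higher and 9 lower, *Slc1a4*, *Slc36a1* and *Slc43a2* no longer being called and *Slc38a5* now called. The methods' t-test gave 18 and 8 after Benjamini-Hochberg adjustment, 12 and 5 by more than 2-fold, and 5 calls, that of *Asns* among them, were lost. With 1 array left out, the lowest count of genes lower by more than 2-fold was also found without OGD replicate 1. The shares of all genes are not given for the block, the t-test and the 2-fold counts under spike-in scaling. The same holds for the fits with 1 array left out, so whether these counts moved with those of all genes was not tested. Signal over background limits *Slc7a10*, *Slc43a1* and *Slc38a4*, which were not well above background on 2, 1 and 4 arrays.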
